A study of Mus musculus with 6 samples.

Results

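Gabra6, Zic1, Cbln1, Calb1, Calb2, Car8, Pcp2, Pvalb and Nrep are 9 genes known from cerebellar neurons or from neurons rich in calcium-buffering proteins. Their messenger RNA was followed on arrays of mouse spinal cord. They were taken by name from the array's 8251 genes with a single symbol, and all 9 were found, on 12 of 12422 probe sets. The probe set with the highest mean intensity stands for its gene. The 9 names were chosen with levels on these arrays known, so the levels and differences of these genes are a description and carry no test.

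The series holds 6 arrays, 1 for each of 3 genotypes at 2 ages, 75 and 110 days. Nontransgenic mice were of strain B6SJL. WT-SOD1 mice had a transgene for wild-type SOD1, a superoxide dismutase, and G93A-SOD1 mice one for its G93A variant, known from familial amyotrophic lateral sclerosis. The strain label of the G93A-SOD1 mice is B6SJL-G93A-SOD1 at 75 days and B6SJL-G93A-SOD1H at 110 days. That of the WT-SOD1 mice names B6SJL at 75 days, and at 110 days there is none. Per the labels' protocols, RNA pooled from 4 spinal cords was used for an array, which was hybridised a single time. By the submitters' account, G93A-SOD1 mice had no symptoms at the younger age, and tremor with partial paralysis at the older, while WT-SOD1 mice stayed without disease. Arrays of nontransgenic and of WT-SOD1 cord are called disease-free here. The promoter that drives each transgene, the sex of the mice and how the cord was cut out are not given in the sources used here. No group has a replicate, so no value below has an error of its own. The difference between the 2 disease-free arrays of an age is the nearest measure of spread.

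The cerebellum is built around Purkinje cells, its output neurons, and granule cells, its most numerous neurons, which excite them. Granule cells use a GABA receptor with the alpha6 subunit, encoded by Gabra6, and release cerebellin 1, encoded by Cbln1, which holds their synapses to Purkinje cells together. Purkinje cells are known for Pcp2, a regulator of G protein signalling, for Car8, a carbonic anhydrase relative that binds the inositol trisphosphate receptor, and for the calcium buffer calbindin, encoded by Calb1. Calbindin, calretinin (Calb2) and parvalbumin (Pvalb) are EF-hand proteins that take up calcium entering a neuron. They also mark sets of spinal interneurons, and Calb1 marks Renshaw cells, the inhibitory neurons that receive motor axon branches. Zic1 is a zinc finger transcription factor of granule cells, of their precursors and of the dorsal spinal cord. Nrep is a small protein gene that is active in developing and regenerating neurons.

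Of the 9 genes, 4 have promoters in the RefSeq table of build GRCm38.p6. The 250 bases before the outermost listed start are shown for all 4 of these. Capitals mark matches, on either strand, to the TATA box TATAAA, the CCAAT box CCAAT, the GC box GGGCGG and the E-box CANNTG.
Gabra6, chr11:42321073-42321322, minus strand: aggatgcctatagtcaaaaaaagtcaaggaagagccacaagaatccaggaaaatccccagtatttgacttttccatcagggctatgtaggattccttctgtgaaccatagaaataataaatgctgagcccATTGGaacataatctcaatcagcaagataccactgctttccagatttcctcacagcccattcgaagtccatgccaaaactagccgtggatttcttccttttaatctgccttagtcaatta
Zic1, chr9:91365769-91366018, minus strand: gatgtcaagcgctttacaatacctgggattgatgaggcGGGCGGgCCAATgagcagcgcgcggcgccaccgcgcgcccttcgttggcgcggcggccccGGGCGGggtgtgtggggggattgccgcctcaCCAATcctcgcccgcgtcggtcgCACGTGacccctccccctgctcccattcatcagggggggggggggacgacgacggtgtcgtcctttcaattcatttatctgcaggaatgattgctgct
Pcp2, chr8:3625548-3625797, minus strand: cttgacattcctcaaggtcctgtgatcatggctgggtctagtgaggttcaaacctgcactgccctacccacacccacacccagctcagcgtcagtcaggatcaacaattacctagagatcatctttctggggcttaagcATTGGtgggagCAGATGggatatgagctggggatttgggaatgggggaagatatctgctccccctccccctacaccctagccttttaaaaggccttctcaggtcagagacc
Pvalb, chr15:78206401-78206650, minus strand: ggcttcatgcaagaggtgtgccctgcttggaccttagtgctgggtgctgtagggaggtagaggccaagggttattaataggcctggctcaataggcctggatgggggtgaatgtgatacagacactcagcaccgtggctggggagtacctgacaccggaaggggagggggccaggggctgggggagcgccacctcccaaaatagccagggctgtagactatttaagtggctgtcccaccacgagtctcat
Gabra6 had 1 CCAAT match, beginning 120 bases before the start, and Pcp2 had 1, beginning 111 bases before it. Zic1 had 2 CCAAT and 2 GC box matches and 1 E-box, and Pcp2 also had 1 E-box. Pvalb had no match to any of these letters. Among all 32851 promoters of this length in the table, 33.8% held CCAAT, 32.7% GGGCGG, 66.2% CANNTG and 12.4% TATAAA. These letters describe the windows and were not set against the array values.

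Median intensity lay between 77.7 and 80.9 on the 6 arrays, and 6737 probe sets had at least 1 array above the pooled median of 79.7. All 12 probe sets of the 9 genes were among them. The bacterial spike-in probe sets, which detect control transcripts added to each hybridisation, averaged 1198 on the nontransgenic array at 75 days and 1590 on the WT-SOD1 array at 110 days. They averaged 850 on the nontransgenic array at 110 days and 696 on the WT-SOD1 array at 75 days. For G93A-SOD1 cord they averaged 645 at 75 and 746 at 110 days. The ratio of the 3′ to the 5′ Gapdh probe set, a measure of RNA integrity, was lowest on the arrays with the highest spike-in levels, at 1.08 and 1.14, against 1.23 to 1.49 on the others. For actin the ratio was 1.69 and 1.84 on these arrays and 1.90 to 2.39 on the others. Some genes that place tissue along the body axis or mark motor neurons were above the pooled median on all 6 arrays. Hoxa7 read 170 to 244, Hoxa5 159 to 264, and Slc18a3, the vesicular acetylcholine transporter gene, 160 to 210. Others of these kinds were dim on all 6 arrays: the motor neuron gene Isl1 read 16.7 to 22.2, Hoxa10 12.2 to 15.5 and Hoxd12 20.2 to 25.2.

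The 9 genes showed 2 patterns over the 6 arrays. Intensity was lower on both G93A-SOD1 arrays than on all 4 disease-free arrays for 8 of the 9 genes, all but Nrep, whereas 15.6% of all tested probe sets lay that way and 6.25% the other way round. The same 8 genes lay below the 2 disease-free arrays with the lower spike-in levels alone, against 30.5% of all tested probe sets. For these 8 this follows from the first count and is no further check. Only Nrep could have been added, and it was not. Intensity was highest on the 75-day nontransgenic and 110-day WT-SOD1 arrays for 7 of the 9, all but Calb2 and Pvalb, against 8.70% of all tested probe sets. Both patterns held together for 6 genes, Calb1, Car8, Cbln1, Gabra6, Pcp2 and Zic1, against 1.83%. The first count depended on scaling: it was 7 with arrays scaled to 1 median, without Calb1, and 5 after quantile normalization, without Calb1, Pvalb and Pcp2. In bulk cord, fewer cells of a type, less RNA per cell and a difference between the tissue pools cannot be told apart.

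**Figure D1:**
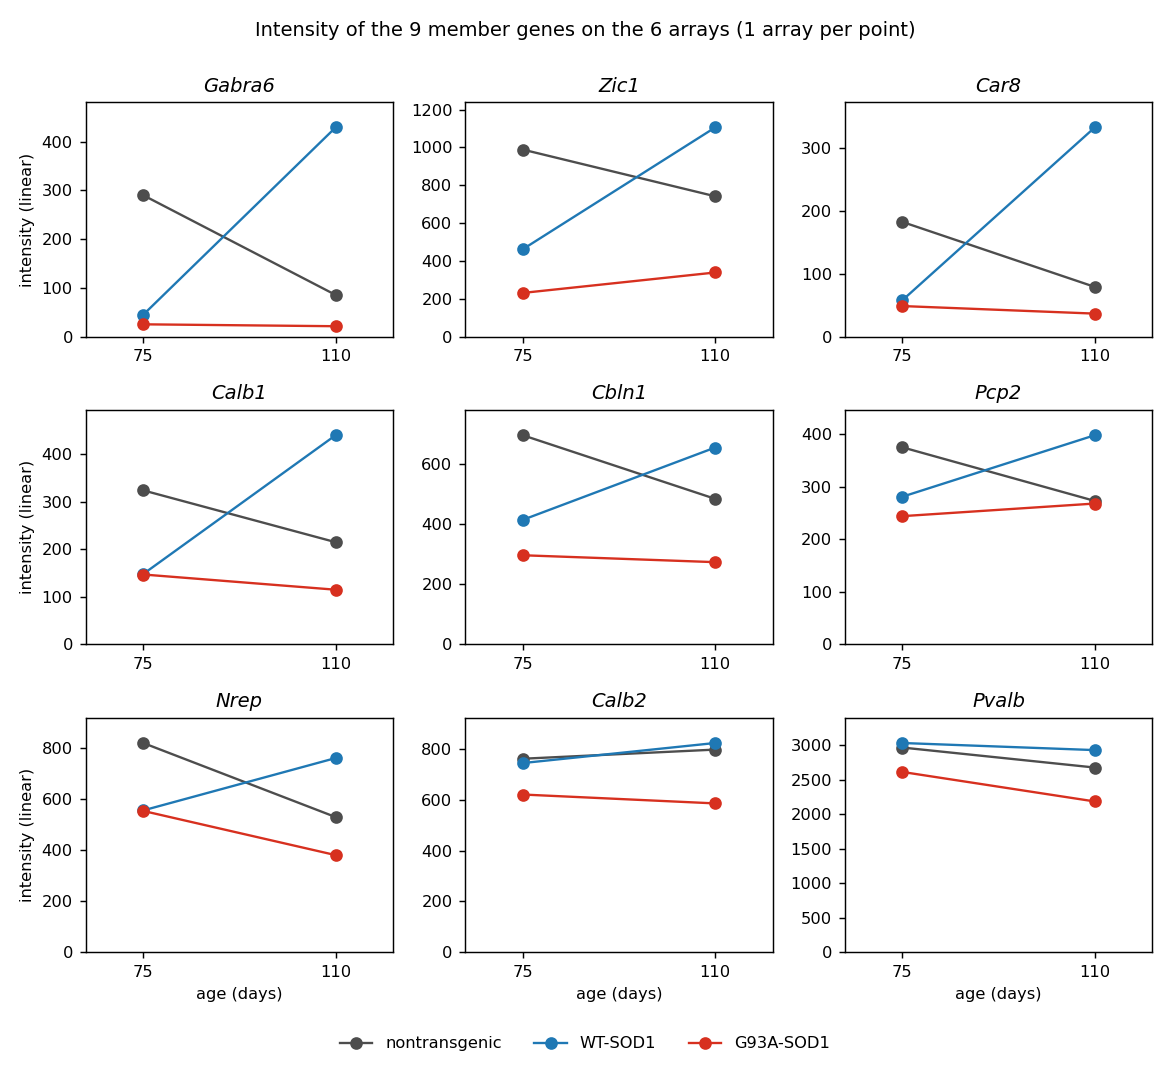
Intensity (linear, y axis) of the representative probe set of each of the 9 genes against age in days, with 1 point per array and lines joining the arrays of a genotype. The WT-SOD1 line crosses the nontransgenic one from below in 8 panels, all but that of Pvalb. For Calb2 and Pvalb both disease-free lines stay above the G93A-SOD1 line and close together.

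Among genes of granule cells, Gabra6 varied most. Its intensity was 290 on the nontransgenic and 44.8 on the WT-SOD1 array at 75 days, but 85.5 on the nontransgenic and 429 on the WT-SOD1 array at 110 days. In G93A-SOD1 cord it was 25.2 at 75 and 21.3 at 110 days, under the floor of 31.0 below which values were given no order. The lower of the 2 high arrays stood 3.39-fold above the next array, and the G93A-SOD1 arrays were the lowest. The other Gabra6 probe set gave the same high arrays, at 306 and 327, with G93A-SOD1 cord at 38.5 and 39.0.

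Zic1 read 989 on the nontransgenic, 462 on the WT-SOD1 and 231 on the G93A-SOD1 array at 75 days. At 110 days it read 742, 1106 and 339 in the same order. The G93A-SOD1 arrays were lowest at both ages, and the lowest disease-free array, WT-SOD1 at 75 days, lay between them and the rest. Cbln1 read 697, 415 and 297 at 75 days on the nontransgenic, WT-SOD1 and G93A-SOD1 arrays, and 485, 656 and 274 at 110 days. Its G93A-SOD1 values again lay under the whole disease-free range, and its range over the 6 arrays was 2.54-fold.

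Among genes of Purkinje cells, Car8 had the widest range, 9.10-fold. It read 182 on the nontransgenic, 57.7 on the WT-SOD1 and 48.5 on the G93A-SOD1 array at 75 days, and 78.9, 332 and 36.5 at 110 days. At 75 days the G93A-SOD1 array was thus close to the WT-SOD1 array and far from the nontransgenic one. Calb1 read 324, 148 and 147 at 75 days and 215, 440 and 115 at 110 days in that order of genotypes. The WT-SOD1 and G93A-SOD1 arrays at 75 days were level for Calb1, 1.00-fold apart.

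Pcp2 varied least among the Purkinje genes, by 1.63-fold. It read 375, 281 and 244 at 75 days and 273, 398 and 268 at 110 days on the nontransgenic, WT-SOD1 and G93A-SOD1 arrays. At 110 days the G93A-SOD1 and nontransgenic arrays were 1.02-fold apart. The second Pcp2 probe set was dimmer, between 103 and 140, and lowest on the nontransgenic array at 110 days, so it did not place the G93A-SOD1 arrays below all others.

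The other EF-hand buffer genes were steady among disease-free arrays. Calb2 read 762 and 745 on the nontransgenic and WT-SOD1 arrays at 75 days, 798 and 824 at 110 days, and in G93A-SOD1 cord 621 at 75 and 586 at 110 days. The disease-free arrays of an age differed by at most 1.03-fold, and the G93A-SOD1 array was 1.21-fold lower than their mean at 75 days and 1.39-fold lower at 110 days. Pvalb read 2968 and 3034 on the nontransgenic and WT-SOD1 arrays at 75 days, 2678 and 2931 at 110 days, and in G93A-SOD1 cord 2614 at 75 and 2186 at 110 days. Its G93A-SOD1 values were 1.15-fold and 1.28-fold lower than the disease-free means of 75 and 110 days. The dimmer Pvalb probe set, at 61.7 to 108, was 1.51-fold and 1.62-fold lower. For Calb2 and Pvalb the gap to either disease-free array of the same age was larger than the gap between those arrays, at both ages.

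Nrep read 819 on the nontransgenic, 555 on the WT-SOD1 and 553 on the G93A-SOD1 array at 75 days, and 529, 760 and 380 at 110 days. Its 75-day G93A-SOD1 array lay above the nontransgenic array at 110 days, and its 110-day one was the lowest of all.

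The comparison of G93A-SOD1 with disease-free cord of the same age asks what differs in presymptomatic and in diseased cord. At 110 days the median log2 difference over the 9 genes was -1.04, against -0.02 over all tested probe sets, and all 9 were below 0. Gabra6 was at least 6.18-fold lower than the disease-free mean, with the G93A-SOD1 value under the floor, but 3.67-fold lower by its second probe set, which was above the floor on all arrays. Car8 was 4.44-fold lower, Zic1 and Calb1 were each 2.67-fold lower, and Cbln1 2.06-fold lower. These 5 of the 9 genes were at least 2-fold lower, a size reached downward by 0.252% of all tested probe sets. Nrep was 1.67-fold and Pcp2 1.23-fold lower. With the spike-in level as a covariate in the fit, no gene of the 9 was 2-fold lower at 110 days: the log2 differences were -0.79 for Zic1, -0.70 for Gabra6 and for Car8, -0.59 for Cbln1, -0.58 for Calb1, -0.32 for Nrep and 0.08 for Pcp2. Calb2 stood at -0.44 in that fit and at -0.47 without it.

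The size at 110 days differed with the array used as control. Against the WT-SOD1 array, 6 of the 9 genes were at least 2-fold lower (0.312% of all tested probe sets), with Car8 at a log2 difference of -3.19, Calb1 at -1.93, Zic1 at -1.71 and Cbln1 at -1.26. Nrep lay at the 2-fold limit, and Gabra6, whose G93A-SOD1 value was under the floor, was at least 13.8-fold lower, or 8.36-fold by its second probe set. Against the nontransgenic array, which had the lower spike-in level, 3 were (0.267%), with Zic1 at -1.13, Car8 at -1.11 and Gabra6 at least 2.76-fold lower. The second Gabra6 probe set, above the floor on all arrays, was 1.61-fold lower and so short of that size. Calb1 at -0.90 and Cbln1 at -0.82 fell short of that size against it. In the limma fit across all probe sets, 102 of 6737 differed at 110 days at an adjusted p under 0.05, or 1.51%, of which 93 rose (1.38%) and 9 fell (0.134%). None of the 9 genes was among them, that is 0 of 9. At an unadjusted p under 0.05, 10.3% of all tested probe sets differed.

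At the presymptomatic age of 75 days the median log2 difference over the 9 genes was -0.57, against -0.04 over all tested probe sets, and all 9 were again below 0. Gabra6 was at least 3.68-fold, Zic1 2.92-fold and Car8 2.11-fold lower than the disease-free mean, so 3 genes reached 2-fold, against 0.267% of all tested probe sets. Against the nontransgenic array, 5 of the 9 genes were at least 2-fold lower (0.460% of all tested probe sets). Against the WT-SOD1 array, which had the lower spike-in level, 0 were (0.223%). Zic1 was 1.99-fold and Cbln1 1.40-fold lower there, and Calb1 and Nrep were level with it. Gabra6 was at least 1.45-fold lower, with the G93A-SOD1 value under the floor, and 1.34-fold by its second probe set. With the spike-in level as a covariate, its slope again came from the disease-free arrays alone. Zic1 at -1.15 remained past 2-fold in that fit, while Gabra6 was at -0.66, Cbln1 at -0.58 and Car8 at -0.16. Calb2 was at -0.26, and Pcp2 and Pvalb were each at -0.17. Calb1 was at -0.04 with the covariate and -0.57 without it, and Nrep at -0.02 and -0.29. The limma fit called 0 of 6737 probe sets at 75 days (0%), while 664 had an unadjusted p under 0.05 (9.86%).

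**Figure D2:**
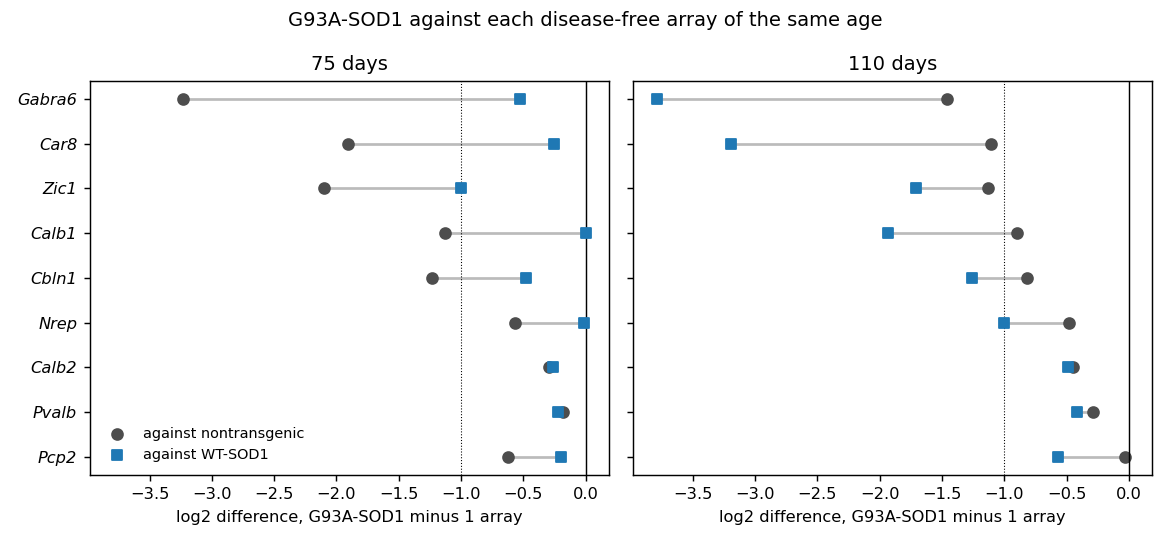
Log2 difference (x axis) between the G93A-SOD1 array and the nontransgenic array (circles) or the WT-SOD1 array (squares) of the same age, for each gene (rows), at 75 days (left) and 110 days (right); the dotted line is 2-fold lower and the grey bar joins both controls. The bar of Car8 runs from -3.19 to -1.11 at 110 days, and those of Calb2 and Pvalb are short. The Gabra6 points, at -3.79 and -1.46, take the floor in place of the G93A-SOD1 value and are bounds.

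Between the disease-free genotypes, the same genes differed in opposite directions at the 2 ages. At 75 days WT-SOD1 was below nontransgenic for 8 of the 9, with log2 differences of -2.70 for Gabra6, -1.66 for Car8, -1.13 for Calb1 and -1.10 for Zic1. These 4 were at least 2-fold lower, against 0.163% of all tested probe sets. At 110 days WT-SOD1 was above nontransgenic for all 9, with 2.33 for Gabra6, 2.07 for Car8 and 1.03 for Calb1, so 3 were at least 2-fold higher, against 0.148%. These 3 crossed by at least 2-fold each way, as did 0.119% of all tested probe sets. Zic1 stood at 0.58, Pcp2 at 0.55, Nrep at 0.52 and Cbln1 at 0.44. Pvalb was 1.02-fold and 1.09-fold higher in WT-SOD1 at 75 and 110 days, and Calb2 differed by 1.02-fold and 1.03-fold. A genotype difference and a difference between the tissue pools or arrays cannot be told apart here, since each genotype and age has 1 array.

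Age gave no common direction. From 75 to 110 days, 7 of the 9 genes were lower in nontransgenic and higher in WT-SOD1 cord, against 27.3% of all tested probe sets. Gabra6, for example, was 3.39-fold lower at 110 days in nontransgenic and 9.58-fold higher in WT-SOD1 cord, and Car8 2.31-fold lower and 5.75-fold higher. Averaged over both disease-free genotypes, the median difference with age was 0.11 on the log2 scale. These averages turned on single arrays: that of Gabra6, 0.75, was -0.60 without the WT-SOD1 array of 75 days and -0.42 without that of 110 days, and that of Car8, 0.66, was -0.17 and -0.38. In the limma fit 0 of the 9 genes were called, against 1 of 6737 probe sets (0.0148%). In G93A-SOD1 cord the log2 difference from 75 to 110 days lay between -0.54 for Nrep and 0.55 for Zic1, under 2-fold for all 9. Gabra6 was under the floor at both ages.

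The 2 arrays on which 7 of the genes were highest were those with the highest spike-in levels. For Gabra6, Car8, Calb1 and Zic1 the 4 disease-free arrays stood in the order of their spike-in levels, with WT-SOD1 at 110 days first, then nontransgenic at 75 days, nontransgenic at 110 days and WT-SOD1 at 75 days. This order held for 3.10% of all tested probe sets. The G93A-SOD1 arrays had spike-in levels near that of the WT-SOD1 array at 75 days. All 9 genes read lower on both of them than on that array, but at 75 days Calb1 (147 against 148) and Nrep (553 against 555) were level. What sets the spike-in level, and its part in the levels of these genes, was not tested.

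**Figure D3:**
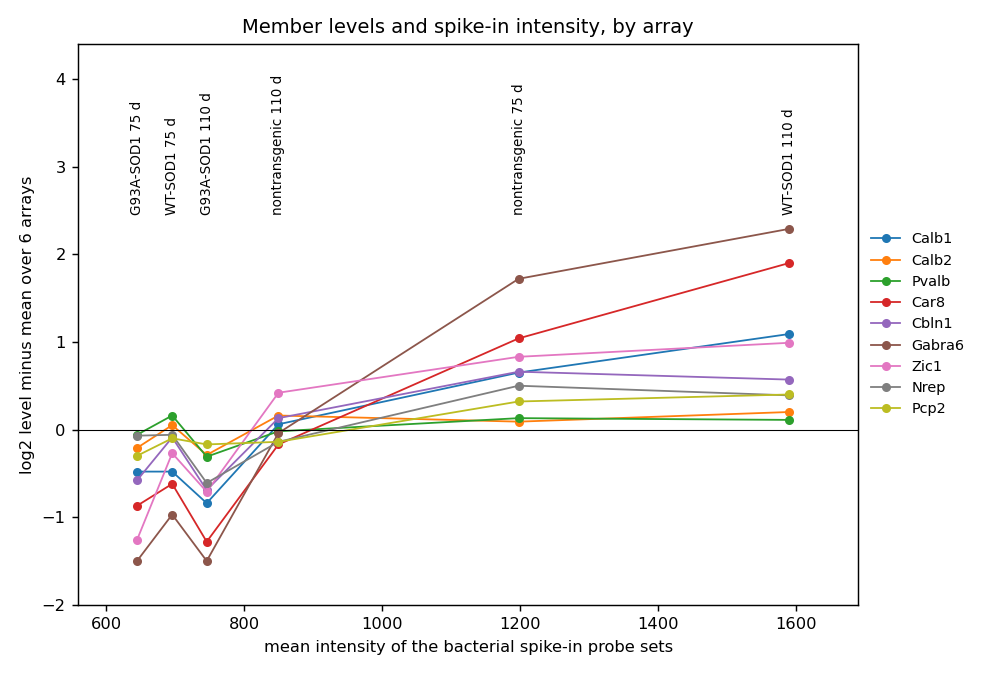
Log2 level of each of the 9 genes minus its mean over the 6 arrays (y axis) against the mean intensity of the bacterial spike-in probe sets on that array (x axis); each column of points is 1 array and lines join the points of a gene. Gabra6 and Car8 stand highest on the 2 arrays at 1198 and 1590, while Calb2 and Pvalb stay near 0 on all disease-free arrays.

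The genes with the most similar profiles were sought among 200 genes whose levels ranged at least 2-fold. Likeness was the root-mean-square difference of log2 levels, each gene centred on its mean over the 6 arrays. The members were each other's nearest neighbours in part: Gabra6 and Car8 were nearest to one another at 0.45, and Cbln1 was nearest to Zic1 at 0.36. Outside the 9, En2, a homeobox gene of the midbrain and cerebellum, was nearest to Calb1 at 0.17. It read 143, 73.1 and 84.4 at 75 days on the nontransgenic, WT-SOD1 and G93A-SOD1 arrays and 91.7, 181 and 60.9 at 110 days. Rgs8, a regulator of G protein signalling strong in Purkinje cells, was nearest to Cbln1 at 0.16 and to Nrep at 0.15. It read 312, 195 and 167 at 75 days and 189, 314 and 121 at 110 days, on a probe set of a type that can cross-hybridise. The motor protein genes Kif5c and Kif5a followed for Cbln1 at 0.16 and 0.17, Snhg11 for Nrep at 0.20, and the dendritic microtubule gene Map2 for Zic1 at 0.40. The kinesin and Map2 genes were highest on the nontransgenic array at 75 days but much nearer to the others on the WT-SOD1 array at 110 days. Kif5c read 197 and 138 there, against 123 and 134 on the other disease-free arrays.

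Other genes of the same cells shared the second pattern in part. Of 10 tested Purkinje cell genes outside the 9, 7 were highest on the 75-day nontransgenic and 110-day WT-SOD1 arrays, or 70.0%, against 8.70% of all tested probe sets. They were Slc1a6, a glutamate transporter gene, Rora, Ppp1r17, Homer3, Lhx1, Cacna1g and Rgs8. Slc1a6 read 163 and 176 on these arrays and 105 to 133 on the others. The count is of order alone, and for some genes the gap was small. Lhx1 read 162 and 157 on these arrays, against 132 to 149 on the others. Rora read 109 on both, against 66.8 to 98.3, and Cacna1g 85.7 and 89.5, against 54.4 to 79.7. Of 5 tested granule cell genes, 2 were, En2 and Grin2c. Neurod1, a granule cell transcription factor gene too dim to be tested, read 52.3 and 63.9 on these arrays and 16.6 to 30.7 on the others. The granule cell genes Pax6 and Atoh1, also too dim to be tested, did not share the pattern. Pax6 read 49.8 on the nontransgenic array at 110 days, above its value on that of 75 days. Atoh1 read 76.2 on the WT-SOD1 and 71.8 on the nontransgenic array at 75 days. Uncx and Gabrd, likewise untested, were highest on the 75-day nontransgenic and 110-day WT-SOD1 arrays. Summed intensity over the 12 granule cell genes on the array was 1296 and 1330 there and 1036 to 1092 elsewhere, and over the 13 Purkinje cell genes 4276 and 4486 there and 3774 to 4387 elsewhere. Aldoc alone made up most of the Purkinje cell sum, at 2842 to 3402. It did not share the pattern and was highest on the nontransgenic array at 110 days. The granule cell genes Zic4 and Eomes and the Purkinje cell gene Pcp4 were under the floor on all 6 arrays. Neurod2 and Zic2 did not share the pattern: Neurod2 read 302 to 335 on all 6 arrays. In the limma fit, 0 of these 15 genes passed at 110 days, at 75 days or with age. At 110 days Rgs8 had a log2 difference of -1.01 (limma adjusted p = 0.350), En2 of -1.08 (adjusted p = 0.496), Cacna1g of -0.63 (adjusted p = 0.132) and Tiam1 of 0.17 (adjusted p = 0.913).

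Close relatives and partners of the 9 genes that were bright enough to be tested did not share the second pattern. Of 11 tested genes, among them receptor subunits, carbonic anhydrases and Zic2, 0 were highest on those 2 arrays, 0 were lower on both G93A-SOD1 arrays than on all others, and 0 passed limma in any comparison. Their median log2 difference was 0.05 at 110 days and -0.07 at 75 days. Gabrd, a GABA receptor subunit gene of granule cells too dim to be tested, did share it, at 63.3 and 61.4 on those arrays and 31.4 to 43.4 on the others. Gabra3, Car5a and Car12, also too dim to be tested, did not share it. Car2, the carbonic anhydrase gene of oligodendrocytes, read 1397 to 1705, and the G protein gene Gnao1 read 1346 to 1655. Gabrg1, a GABA receptor subunit gene, had log2 differences of 0.50 at 110 days (adjusted p = 0.203) and -0.80 at 75 days (adjusted p = 0.398). Of 12 other tested calcium sensor, pump and EF-hand genes, 0 were highest on those 2 arrays, but 6 were lower on both G93A-SOD1 arrays than on all others, or 50.0%. These were S100b, Hpcal1, Vsnl1, Slc8a1 and the calcium pump genes Atp2b2 and Atp2a2. None of the 12 passed limma, and Atp2a2 (-0.66, adjusted p = 0.102) and Atp2b2 (-0.45, adjusted p = 0.403) stood farthest from 0 at 110 days.

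Other neuron lists differed in how many genes had each pattern. Of 23 tested general neuron genes, 12 were lower on both G93A-SOD1 arrays than on all disease-free arrays, or 52.2%, while 2 (8.70%) were highest on the 75-day nontransgenic and 110-day WT-SOD1 arrays. The list's median log2 difference was -0.36 at 110 and -0.14 at 75 days, and 0 passed. Syt1, the calcium sensor of vesicle release, stood farthest at -1.26 at 110 days (adjusted p = 0.170). Of 9 tested motor neuron genes, 2 were lower on both G93A-SOD1 arrays, and 1 fell at 110 days in the limma fit: Nefm, the medium neurofilament gene, at a log2 difference of -0.82 ± 0.13 (SE; limma adjusted p = 0.0301). Of 12 tested spinal inhibitory neuron genes, 3 were lower on both G93A-SOD1 arrays, Gad1, Slc32a1 and Glrb, and 0 were highest on the other 2. At 110 days Gad1, which encodes a GABA-making enzyme, and Glrb, the glycine receptor beta subunit gene, stood at -0.58 on the log2 scale (adjusted p = 0.121 and 0.288), and 0 of the 12 passed. Of 9 tested spinal excitatory and peptide genes 0 were lower on both G93A-SOD1 arrays and 0 passed, but 3, Cck, Trh and Gria1, were highest on the 75-day nontransgenic and 110-day WT-SOD1 arrays (33.3%), with Tac2 at 0.32 and Gria2 at -0.19 at 110 days.

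Lists of position and of other cells were set beside these. Hox genes, of which 15 were tested, had a median log2 difference of 0.22 at 75 and 0.04 at 110 days, 0 passed, and their summed intensity over the 31 on the array lay between 3527 and 3884. Hoxa5 stood at -0.33 and Hoxa7 at 0.28 at 110 days. Of 8 tested genes of forebrain, midbrain and hindbrain 0 passed and 1 was highest on the 75-day nontransgenic and 110-day WT-SOD1 arrays, with En1 at -0.09 and Th at -0.12. Of 11 tested microglia genes 10 rose at 110 days and 0 fell, led by Lyz2 at 2.84 on the log2 scale (adjusted p = 0.00175), Tyrobp at 2.41 (adjusted p = 0.000984), C1qb at 2.36 (adjusted p = 0.000984) and Cd68 at 2.31 (adjusted p = 0.00112). Their summed intensity over 13 genes was 2035 to 2563 on the disease-free arrays, 2326 on the G93A-SOD1 array at 75 days and 9049 at 110 days. Of 6 tested oligodendrocyte genes 0 passed (median -0.23), with Mal at -0.29 and Ugt8a at -0.28, and 2, Mbp and Ugt8a, were lower on both G93A-SOD1 arrays than on all others (33.3%). Both tested sensory ganglion genes, Sncg at -0.22 and Ntrk3 at -0.20, were lower on both G93A-SOD1 arrays too, and 0 passed. Skeletal muscle also uses Pvalb: its 16 genes on the array summed to 1239 to 2081, highest on the WT-SOD1 array at 75 days. There the brighter Pvalb probe set had its highest value, 3034 against 2968 on the next array, and the dimmer one its lowest disease-free value, 83.6 against 103 to 108. Of 9 tested muscle genes 0 passed, with Acta1 at 1.44 and Myl1 at 0.42 at 110 days. Of 5 tested pituitary genes 0 passed, with Pomc at -0.23 and Cga at 0.30 at 110 days. The part of these cells in the levels of the 9 genes was not tested.

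**Figure D4:**
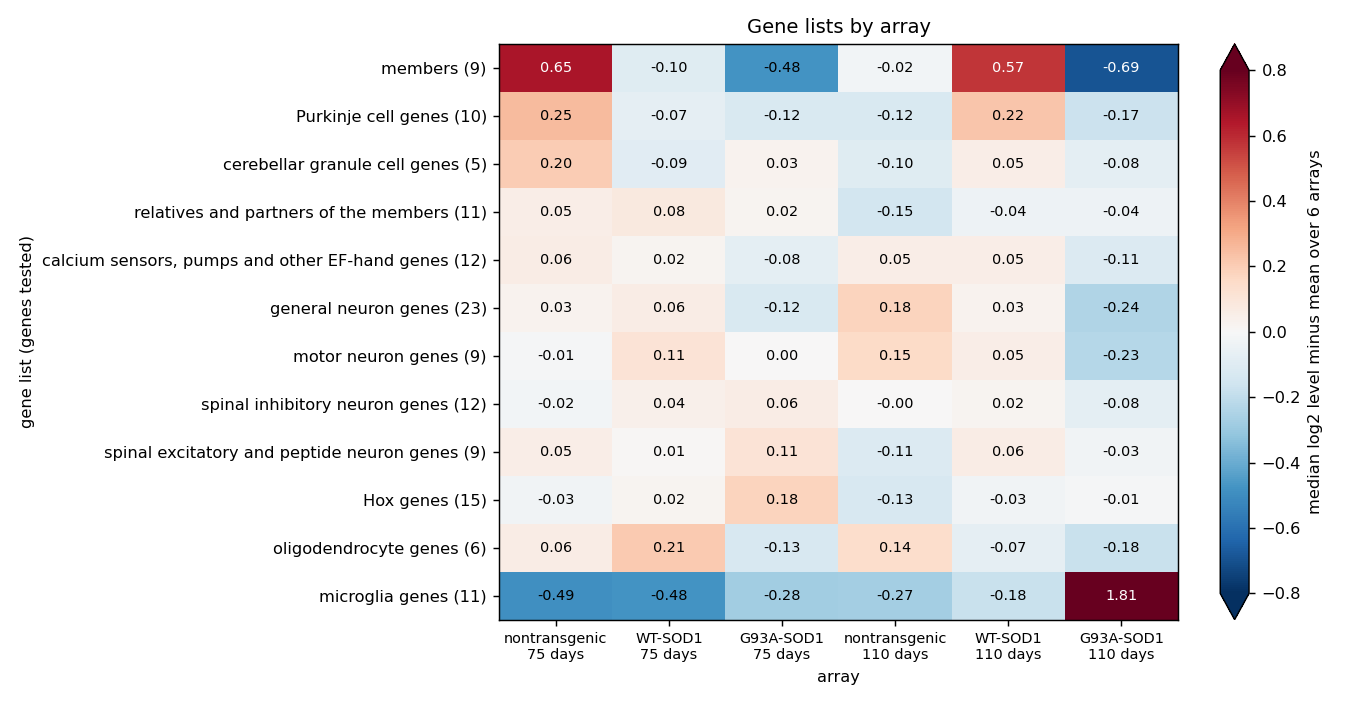
Median over the tested genes of each list (rows, number of genes in brackets) of the log2 level minus the gene's mean over the 6 arrays (columns); colours stop at 0.8 in either direction and the value stands in each cell. The 9 genes stand at 0.65 and 0.57 on the 75-day nontransgenic and 110-day WT-SOD1 arrays. On the same arrays Purkinje cell genes stand at 0.25 and 0.22, and granule cell genes at 0.20 and 0.05. The general neuron, motor neuron and Hox lists lie between -0.03 and 0.05 there.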

How the data were processed

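The authors deposited 1 linear intensity per probe set and array. The sources used here do not give how probes were summarised or arrays scaled. Of 12488 rows, 66 control probe sets were set apart, and 9 of these gave the spike-in level. Platform annotation updated through Entrez identifiers gave 10833 probe sets 1 symbol, 396 several and 1193 none (10817 matched, 0 changed). Symbols are old annotation, and identifiers with _i_at, _f_at, _r_at or _s_at (Pvalb, Pcp2, Rgs8, the second Gabra6 set) can cross-hybridise. Before log2, a floor of 31.0 (25th percentile over the arrays) replaced smaller intensities. Probe sets above the pooled median on at least 1 array were tested. Between 24.6% and 25.9% of probe sets per array lay at or under the floor.

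limma 3.58.1 in R 4.3.3 fitted 4 means (disease-free and G93A-SOD1 cord, per age) with 2 residual degrees of freedom, and p-values were adjusted by Benjamini-Hochberg over all probe sets tested. The spike-in covariate left fewer residual degrees of freedom, and only the disease-free pairs set its slope. Each lone G93A-SOD1 array is thus assumed to vary like the disease-free pairs, whose arrays differ in genotype. The fit was checked on simulated data. A mean over intensities chose the probe set of a gene; by mean log2 level the second Gabra6 set would stand for it. The genes named are the 9; their 3 nearest genes in profile where the range was at least 2-fold; and per list at most 4 calls, else the 2 genes farthest from 0 at 110 days. Those listed as sharing a pattern, and Neurod1, Neurod2, Gabrd, Gh, Prl, Zic2, Zic4, Eomes, Pcp4, Slc1a6, Car2, Slc18a3 and Ppp1r17, were chosen after their values were seen. So were Pax6, Atoh1, Uncx, Gabra3, Car5a, Car12, Aldoc, Isl1, Hoxa10 and Hoxd12. The 9 genes and all lists were chosen with earlier results of these data known. Alternatives were no filter, a filter on the mean, a higher floor, 2 scalings, a spike-in covariate and leaving out each disease-free array.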

Additional observations from a re-analysis of the deposited data

Results flagged for a closer look

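The difference between WT-SOD1 and nontransgenic cord was at least 2-fold in opposite directions at the 2 ages for 3 of the 9 genes. This rests on 1 array per genotype and age, and the difference between ages was not tested. On the log2 scale the WT-SOD1 minus nontransgenic difference was larger at 110 than at 75 days by 5.02 for Gabra6, by 3.73 for Car8 and by 2.16 for Calb1. Among all 6737 tested probe sets, 8 (0.119%) had this pattern of at least 2-fold lower and then higher. Of these, 4 are probe sets of the 3 genes. The others were a second probe set of Ppp1r17, a Purkinje cell gene, at 92.2 in nontransgenic cord of 75 days, 91.9 in WT-SOD1 cord of 110 days and 34.0 to 39.5 elsewhere, Xist, and 2 probe sets with no single symbol here. Xist, which coats the X chromosome that female cells silence, read 102 and 68.7 on these arrays and 18.6 and 19.6 on the remaining disease-free ones. G93A-SOD1 cord read 64.5 at 75 and 49.5 at 110 days.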

How the results depend on the processing

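With 1 array per group, every value rests on single arrays, and signal near the floor limits Gabra6 in G93A-SOD1 cord. The number of limma calls at 110 days, 102, was 42 with no filter, 66 with the floor raised to the 40th percentile, and 225 (138 higher, 87 lower) with the spike-in covariate; the cause was not tested. Leaving out 1 disease-free array gave 147 to 592, the latter without WT-SOD1 at 110 days (199 higher, 393 lower), with 155 without WT-SOD1 at 75 days and 179 without nontransgenic at 110 days. At 75 days the count of 0 became 50 with no filter and 13 (without nontransgenic at 75 days) to 124 (without WT-SOD1 at 110 days) with an array left out, with 38 without WT-SOD1 at 75 days and 65 without nontransgenic at 110 days. For age, 1 call became 3 with the covariate and 2 (without nontransgenic at 110 days) to 16 (without WT-SOD1 at 110 days), with 15 without nontransgenic and 7 without WT-SOD1 at 75 days; limma with no filter gave 0, with 589 at an unadjusted p under 0.05. The count of genes lower on both G93A-SOD1 arrays was 5 of 9 after quantile normalization. It was 8 without the 2 arrays of higher spike-in level, a setting that could not lower it and so is no check. Of 303 alternative values of single genes, 22 moved by more than the gene's own spread between disease-free arrays. This spread (SD, log2) was 1.78 for Gabra6 and 1.33 for Car8, but 0.03 for Calb2 and 0.07 for Pvalb. The count is thus no measure of stability. Gabra6 at 75 days, -1.88 and -0.53 without the nontransgenic array of 75 days, did not count as moved. Calb2 at 110 days, -0.47 and -0.44 with the covariate, did. No difference of at least 2-fold turned its sign. Below that size 22 values had the opposite sign, 19 of them age differences, mostly with an array left out or with the covariate (Gabra6, -0.21). The other 3 were Pcp2 in G93A-SOD1 cord at 110 days with the covariate (0.08), and WT-SOD1 minus nontransgenic for Calb2 at 110 days with arrays scaled to 1 median (-0.01) and for Pvalb at 75 days by the dimmer probe set (-0.31). No paired analysis was possible because each group has 1 array and the labels give no replicate numbers.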

Other observations

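The WT-SOD1 array at 75 days carried strong signal of pituitary hormone genes. The 8 pituitary genes on the array summed to 11450 there and to 731 to 864 on the other 5 arrays. Gh, the growth hormone gene, made up most of this at 8572, against 151 to 169 elsewhere, and Prl, the prolactin gene, read 1157 against 90.6 to 129. Pomc, the precursor gene of adrenocorticotropin, read 1060 there and 135 to 167 elsewhere, and Cga, the common hormone alpha chain gene, 286 against 70.9 to 90.9. Acta1, the skeletal actin gene, was also highest on this array at 448, against 52.5 to 170 elsewhere. The same array had the lowest disease-free values of Gabra6, Car8, Calb1, Cbln1 and Zic1, and by a small gap of Calb2 (745 against 762). Nrep and Pcp2 were instead lowest on the nontransgenic array at 110 days, at 529 and 273, against 555 and 281 on this array. Pvalb was highest on this array by its brighter probe set, at 3034, and lowest of the disease-free arrays by its dimmer one, at 83.6.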
